A study of Homo sapiens with 4 samples.

Results

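Catalase, the superoxide dismutases and the glutathione peroxidases are enzymes that dispose of superoxide and peroxides. Superoxide dismutases turn superoxide into hydrogen peroxide, catalase splits hydrogen peroxide into water and oxygen, and glutathione peroxidases reduce peroxides, most of them with glutathione as the electron donor. Cells place these enzymes in different compartments: catalase (CAT) in peroxisomes, the copper and zinc enzyme SOD1 mainly in the cytosol, the manganese enzyme SOD2 in the mitochondrial matrix, GPX1 in cytosol and mitochondria, GPX4 at membranes, where it reduces lipid hydroperoxides, and GPX8 in the endoplasmic reticulum.

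The genes were taken by symbol from the authors' deposited table, which lists 16376 genes. Of 8 named genes, 6 were found there (CAT, SOD1, SOD2, GPX1, GPX4 and GPX8), and GPX2 and GPX7 were not analysed here, nor were SOD3, GPX3, GPX5 and GPX6. RNA-seq of poly(A)-selected RNA was made from HCT116, a human colon cancer cell line, in 2 untreated samples (Control) and 2 samples treated with hydrogen peroxide (H2O2), and the labels give no dose or exposure time. The labels do not say whether the samples were separate cultures, and p-values therefore measure the spread between these samples only, which may be technical. The comparison asks which of these genes differ in RNA level between cells with and without the oxidant. The header letters its groups A and B without naming them. Control comes first in the name of the table and was taken as group A, and every direction depends on this reading.

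Whole read counts of the 4 libraries were recovered from the group means, and totals ranged from 6858809 to 7365032 reads over the listed genes. The table carries no replicate numbers, so the libraries of a group are called the deeper and the shallower. The control libraries stood apart from each other more than the H2O2 libraries did for some abundant genes: GAPDH, a glycolytic enzyme gene, had a normalized count of 4774 in the deeper and 7389.7 in the shallower control, against 6602 and 6711 with H2O2. ACTB, the beta-actin gene, had 4535 and 6757 in the controls and 6898 and 7371 with H2O2. Of 10 epithelial markers 8 were listed, all with reads in every library. Normalized counts ran from 1697 to 2088 for EPCAM and from 1688 to 2456 for KRT8, but only from 6.16 to 13.4 for KRT20. None of the 8 had an authors' adjusted p under 0.05. The authors' ratio of group means was above 1 for 4 of them, EPCAM and KRT8 included, and the list median log2 fold change was -0.016. Of 6 immune markers only CD14 and CD68 were listed, summing to 8.63 and 17.5 in the controls and 22.9 and 27.0 with H2O2. CD14, with normalized counts of 4.79 and 3.08 in the controls and 18.3 and 10.4 with H2O2, was higher in the authors' deposited table (3.65-fold, adjusted p = 0.0270). It rested on 5 and 3 control reads and 19 and 10 with H2O2. A moderated linear model (limma) on the 4 recovered libraries did not call CD14 (adjusted p = 0.0794). Of 5 endothelial markers only KDR was listed, at 6.16 to 13.5. Of 6 fibroblast markers 3 were listed, and their sum was 933 to 1017 in the controls and 754 to 813 with H2O2, most of it COL1A1, a collagen gene that was lower with H2O2 in the authors' deposited table (adjusted p = 0.0211). The part of these markers in the results below was not tested.

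The 3 glutathione peroxidases differ in the catalytic residue that their mRNAs encode. GPX1 and GPX4 are selenoproteins: an in-frame TGA, elsewhere a stop codon, is read as selenocysteine. The codons below, from GENCODE release 29 transcripts, show this difference, with the catalytic codon in capitals and 12 bases of coding sequence on each side, 5′ to 3′.
GPX1, codon 49 of 203: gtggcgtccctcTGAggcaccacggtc
GPX4, codon 73 of 197: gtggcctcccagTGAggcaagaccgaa
GPX8, codon 79 of 209: gtggccagtgacTGCcaactcacagac
The TGC of GPX8, a cysteine codon, was placed opposite both TGA codons by aligning the encoded proteins. Over aligned positions, with selenocysteine counted as cysteine, GPX1 shared 41.9% of residues with GPX4 and 37.4% with GPX8, and GPX4 shared 34.7% with GPX8. No gene coordinates are given, because the table was made on hg19 and this annotation is on GRCh38.

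With H2O2 the 6 genes stood 5.97% to 23.7% above Control in the authors' deposited table, and none reached an adjusted p under 0.05 there. Of all listed genes, 7.19% passed. Before adjustment SOD1 alone had a p under 0.05 in the authors' test, as did 19.6% of all genes. limma, a moderated linear model run on the recovered libraries, called none of the 6 against 4.1% of all genes, and gave 1 (SOD1) an unadjusted p under 0.05 against 20.2% of all genes. SOD1 had the largest difference of the 6, 1.24-fold, and CAT the smallest, 1.06-fold, in the authors' deposited table. The control genes ACTB and GAPDH stood at 1.26-fold (adjusted p = 0.150) and 1.09-fold (adjusted p = 0.659) there. In the authors' deposited table the 6 had a median log2 fold change of 0.17 and all listed genes one of 0.00029. Over the 6500 listed genes with a mean of at least 300 it was 0.020. Counts are relative to the other RNA of a library. A change in the number of cells expressing a gene and a change in RNA per cell cannot be told apart. In 5 of the 6 genes both H2O2 libraries lay above both controls, as they did in 26.3% of all genes. For GPX1 and GPX4 this rested on near-ties between the shallower libraries. Their normalized counts in Control and with H2O2 were 302.8 and 303.7 for GPX1, and 3806 and 3809 for GPX4. Raw counts ran the other way (295 and 292 reads, 3708 and 3662 reads), so these separations depend on the size factors. With 2 libraries against 2, an exact permutation test of a single gene cannot give a two-sided p below 0.333.

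**Figure D1:**
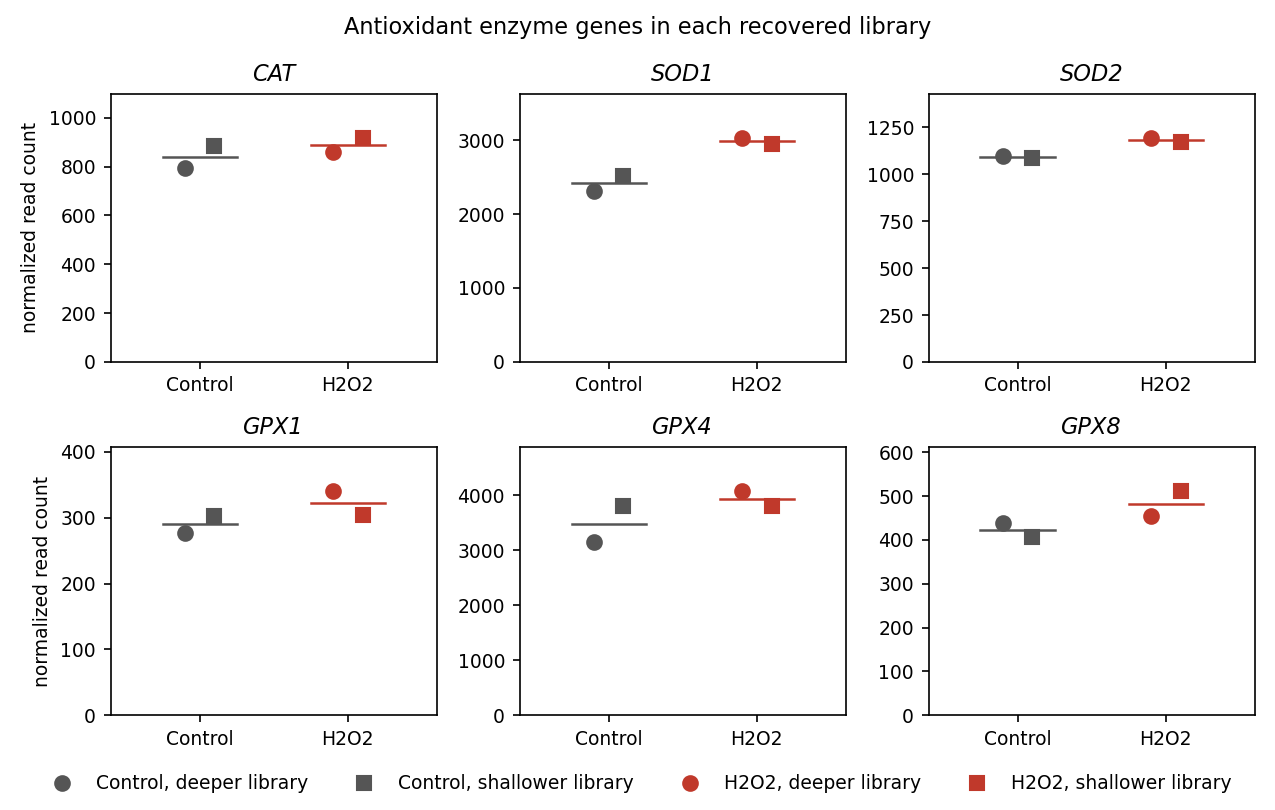
Normalized read counts (y axis, from 0) of CAT, SOD1, SOD2, GPX1, GPX4 and GPX8 in Control (grey) and H2O2 (red). Circles are the deeper and squares the shallower library of a group, and lines are means of 2 libraries. The groups are well apart for SOD1 and overlap for CAT.

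SOD1, the superoxide dismutase of the cytosol, had normalized counts of 2318 in the deeper and 2511 in the shallower control and 3025 and 2949.9 with H2O2. Both treated libraries lay above both controls, and the gap between the groups was wider than the gap within either. Its mean was 2414 ± 137 in Control and 2988 ± 53.3 with H2O2 (SD, n = 2 each). The log2 fold change was 0.31 ± 0.11 (SE, limma, adjusted p = 0.121), a fold of 1.24 with a 95% interval from 1.06 to 1.45, and the authors' deposited table gave an adjusted p of 0.142. SOD1 ranked 2089 of 16376 genes by p in the authors' deposited table. limma called it without the deeper control (log2 fold change 0.25, adjusted p = 0.0297) and without the shallower control (0.37, adjusted p = 1.40e-04), fits in which the spread comes from the H2O2 libraries alone and the lone control is assumed to vary like them. Those fits called 8.52% and 22.2% of all genes. With the deeper H2O2 library left out the adjusted p was 0.703 (1.73% of all genes called), and with the shallower left out 0.541 (3.13%).

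SOD2, the mitochondrial dismutase, had the closest replicates of the 6, with normalized counts of 1097 and 1089 in the controls and 1192 and 1173 with H2O2. The groups did not overlap, yet the step between them was small: 1093 ± 5.26 in Control and 1183 ± 13.3 with H2O2 (SD, n = 2 each). Its log2 fold change was 0.11 ± 0.10 (SE, limma, adjusted p = 0.572), with a 95% interval of the fold from 0.93 to 1.26. limma draws the error of a gene towards that of genes of similar level, so the SE is wider than these replicates alone would give. Leaving out any 1 library kept the log2 fold change between 0.10 and 0.13.

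CAT, the peroxisomal enzyme that acts on hydrogen peroxide itself, had normalized counts of 794 in the deeper and 883 in the shallower control and 860.1 and 916 with H2O2. The groups overlapped: the deeper treated library lay below the shallower control. The log2 fold change was 0.085 ± 0.11 (SE, limma, adjusted p = 0.707), with a 95% interval of the fold from 0.90 to 1.25. Without the deeper control the value was 0.0081 and without the shallower 0.16, neither called (adjusted p = 0.979 and 0.258).

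GPX4, the lipid hydroperoxide reductase, had the highest counts of the 6, with 3281 and 3708 reads in the controls and 4215 and 3662 with H2O2. Normalized, these were 3145 and 3806 in the controls and 4069 and 3809 with H2O2, so the groups did not overlap but the shallower control and the shallower treated library were nearly level. The controls differed from each other by 0.28 on the log2 scale, more than the log2 fold change between groups of 0.19 ± 0.12 (SE, limma, adjusted p = 0.398). The 95% interval of the fold ran from 0.95 to 1.36. Without the shallower control the log2 fold change was 0.32, and without the deeper control it was 0.049. With the deeper H2O2 library left out it was 0.14, and with the shallower 0.23. The size of the GPX4 difference thus depended on which control library was kept.

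GPX1, the glutathione peroxidase of cytosol and mitochondria, was the least counted of the 6, with 289 and 295 control reads and 352 and 292 reads with H2O2. Its normalized counts were 277 and 303 in the controls and 339.8 and 304 with H2O2. Here too the shallower libraries of the groups were nearly level, and the deeper treated library stood above the rest. The log2 fold change was 0.15 ± 0.13 (SE, limma, adjusted p = 0.553), with a 95% interval of the fold from 0.91 to 1.35. GPX1 is less certain than the others: 12.7% of the 75-base words of its transcript are found in its pseudogene GPX1P1, against none for CAT, SOD1, GPX4 and GPX8 and 2.14% for SOD2.

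GPX8, the cysteine-type enzyme of the endoplasmic reticulum, had normalized counts of 439 and 408 in the controls and 454 and 511 with H2O2. The groups did not overlap, and the order of the libraries within a group was opposite to that of GPX1 and GPX4: the shallower control was the lowest and the shallower treated library the highest. The log2 fold change was 0.19 ± 0.12 (SE, limma, adjusted p = 0.407), with a 95% interval of the fold from 0.95 to 1.36. Leaving out 1 library moved it between 0.10 and 0.27, with no call.

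**Figure D2:**
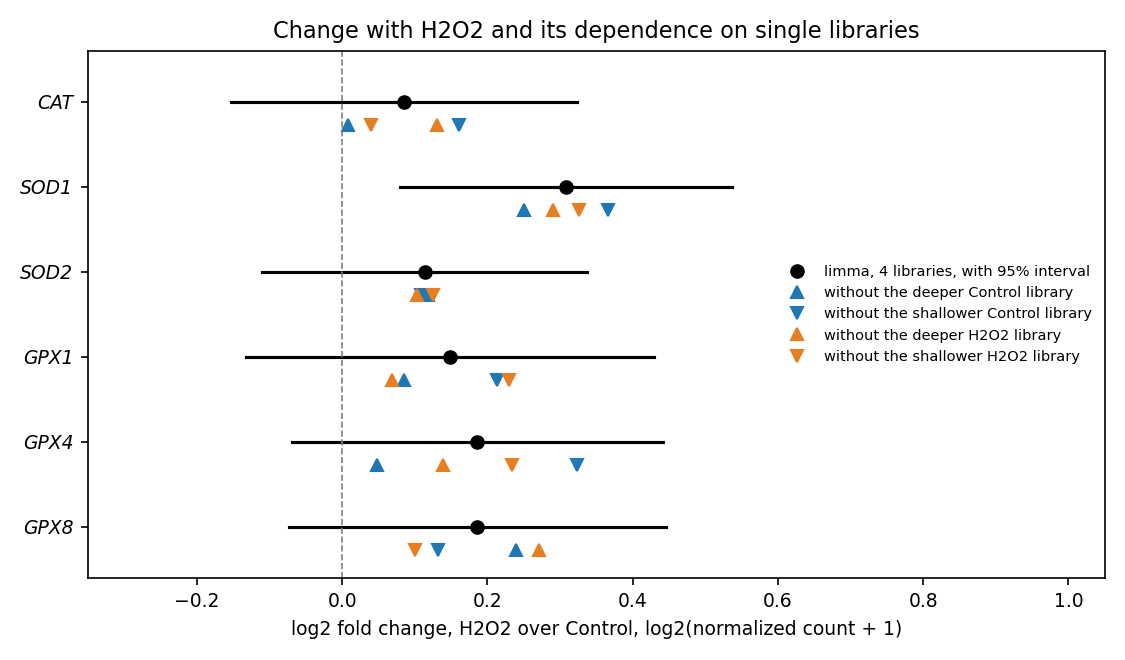
Log2 fold change, H2O2 over Control, on the log2(normalized count + 1) scale (x axis) for each gene. Black points and bars are limma with all 4 libraries and its 95% interval, and triangles are the values with 1 library left out. The interval of SOD1 starts at 0.080, those of the other 5 genes span 0, and the triangles of GPX4 run from 0.049 to 0.32.

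The upper ends of the 95% intervals ranged from 1.25-fold (CAT) to 1.45-fold (SOD1). The counting error of a single library was 1.54% to 1.75% for GPX4 and 5.33% to 5.88% for GPX1. The median of the 6 genes lay 0.12 (log2) higher in the shallower control than in the deeper, against 0.0094 for all genes, and -0.030 between the H2O2 libraries in the same order. The 6 genes held 0.115% and 0.127% of all reads in the deeper and shallower controls and 0.140% and 0.135% with H2O2. Their summed share was higher in both treated libraries than in both controls.

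Levels between genes were compared as normalized counts per kilobase of transcript, over the transcripts of each gene that carry a consensus coding sequence (CCDS) in GENCODE release 29. GPX4 was the highest, at 3422 to 4427 per kilobase over the 4 libraries, and SOD1 was next, at 2399 to 3132. The ranges of GPX4 and SOD1 did not meet. CAT stood at 345 to 398 and GPX1 at 241 to 295 with its longest such transcript. These 4 genes kept the order GPX4, SOD1, CAT, GPX1 with the longest and the shortest CCDS transcript. With all annotated exons in place of a transcript, the ranges of CAT and GPX1 overlapped.

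The places of SOD2 and GPX8 depended on the transcript assumed. SOD2 has 7 CCDS transcripts of 815 to 14266 bases, which differ mostly in untranslated sequence, and its level was 76.3 to 83.6 per kilobase with the longest and 1336 to 1463 with the shortest. GPX8, with CCDS transcripts of 1036 to 3245 bases, stood at 126 to 157 or at 393 to 493, and with the shortest its range met that of CAT. Counts per gene do not show which transcript the cells made. SOD2 also shares 9.71% of its exonic bases with other genes (ACAT2, SOD2-OT1 and WTAP). Whether reads were counted by strand is not given in the sources used here.

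**Figure D3:**
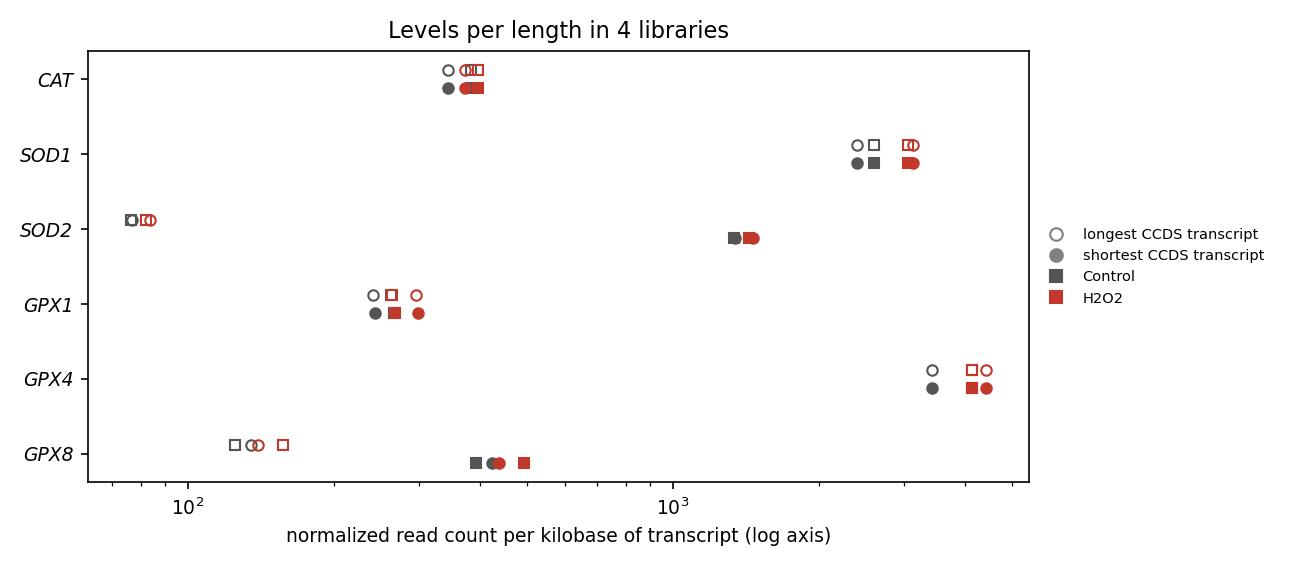
Normalized read count per kilobase of transcript (x axis, log scale) in Control (grey) and H2O2 (red) libraries, circles for the deeper and squares for the shallower. Open symbols use the longest and filled symbols the shortest CCDS transcript; SOD2 moves from the lowest to the third place between them. The shallower Control library of GPX1 and of GPX4 lies almost under the shallower H2O2 library.

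For each gene, the gene of similar abundance (mean within 2-fold) with the most similar pattern over the 4 libraries was found by the root mean square difference of centred log2 values. These were SET for SOD1 (0.021), ANAPC16 for SOD2 (0.0061), TRIM8 for CAT (0.0022), UBALD1 for GPX1 (0.0025), TRIM28 for GPX4 (0.0072) and ACTR10 for GPX8 (0.012). With 4 libraries and 545 (GPX4) to 5793 (GPX1) candidate genes, these matches are a description only.

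The genes that serve these enzymes were taken from lists that hold 130 listed genes, of which 4 passed the authors' test: CHAC1, DUOX1 and NOXA1 were lower and TMX1 was higher. Over all genes the authors' test called 2.58% higher and 4.62% lower. limma called the 3 lower genes and not TMX1 (adjusted p = 0.0645).

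Selenium supply bears on GPX1 and GPX4, since selenocysteine is made on its own transfer RNA and inserted by dedicated factors. None of 9 listed genes of this machinery passed, and in the authors' deposited table the median log2 fold change was 0.088. SCLY, which frees selenium from selenocysteine, had the smallest p there (fold 0.667, adjusted p = 0.265), with 58 and 45 control reads and 38 and 30 with H2O2. It is uncertain, as 89.8% of its 75-base words occur in a read-through transcript. SECISBP2L, a paralog of the factor that binds the selenocysteine insertion element, stood at a fold of 0.843 (adjusted p = 0.323) in the authors' deposited table. Its groups overlapped, with normalized counts of 521 and 354 in the controls and 353 and 385 with H2O2. Of 12 other selenoprotein genes none passed and 9 had a ratio above 1 (median log2 fold change 0.17), as did 50% of all genes in the authors' deposited table. SEP15, a selenoprotein of the endoplasmic reticulum, had normalized counts of 1277 and 1290.3 in the controls and 1652 and 1610.2 with H2O2 (authors' deposited table, fold 1.27, adjusted p = 0.0776). SELK, another selenoprotein of that compartment, stood at 1.30-fold (adjusted p = 0.226) in the authors' deposited table.

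SOD1 receives copper from the chaperone CCS, and none of 10 listed genes of metal supply passed (median log2 fold change -0.0094 in the authors' deposited table). CCS had normalized counts of 314 and 388 in the controls and 251 and 273 with H2O2, with both treated libraries below both controls. Its fold was 0.745 in the authors' deposited table (adjusted p = 0.0704) and its log2 fold change -0.42 ± 0.14 (SE, limma, adjusted p = 0.110). The limma log2 fold change of CCS was -0.57 without the deeper control and -0.26 without the shallower. CCS shares 13.9% of its 75-base words with CCDC87, a gene on the opposite strand. ATP7B, a copper exporter gene, stood at a fold of 0.797 (adjusted p = 0.311) in the authors' deposited table.

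CAT is imported into peroxisomes by PEX proteins, and none of 15 listed genes passed (median log2 fold change 0.066 in the authors' deposited table). PEX3 and PEX14, which encode peroxisomal membrane proteins, had the smallest p there, at 1.32-fold (adjusted p = 0.242) and 1.14-fold (adjusted p = 0.490).

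Enzymes that make superoxide or hydrogen peroxide held 2 of the 4 called genes. Of 17 listed, the authors' deposited table had 2 lower, none higher and 15 short of the threshold, with a median log2 fold change of -0.19. DUOX1, an oxidase that releases hydrogen peroxide, had normalized counts of 467 and 456 in the controls and 259 and 249.6 with H2O2. Both treated libraries lay far below both controls, and the libraries of a group were close. In the authors' deposited table DUOX1 fell to 0.551 of the control level (adjusted p = 1.62e-06), and limma called it with all libraries (-0.86 ± 0.12, SE, adjusted p = 0.00144) and in each of the 4 fits with a library left out. It shares 5.84% of its 75-base words with DUOX2. NOXA1, an activating subunit of NADPH oxidase 1, had 219 and 289 in the controls and 163.1 and 163.3 with H2O2, and in the authors' deposited table it fell to 0.643 of the control level (adjusted p = 0.00510). limma called NOXA1 with all libraries (log2 fold change -0.62, adjusted p = 0.0407) and without the deeper control (-0.82, adjusted p = 3.58e-05). It did not without the shallower control (-0.42, adjusted p = 0.0596). With either H2O2 library left out, the deeper first, the log2 fold change was again -0.62, with limma adjusted p-values of 0.143 and 0.105.

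**Figure D4:**
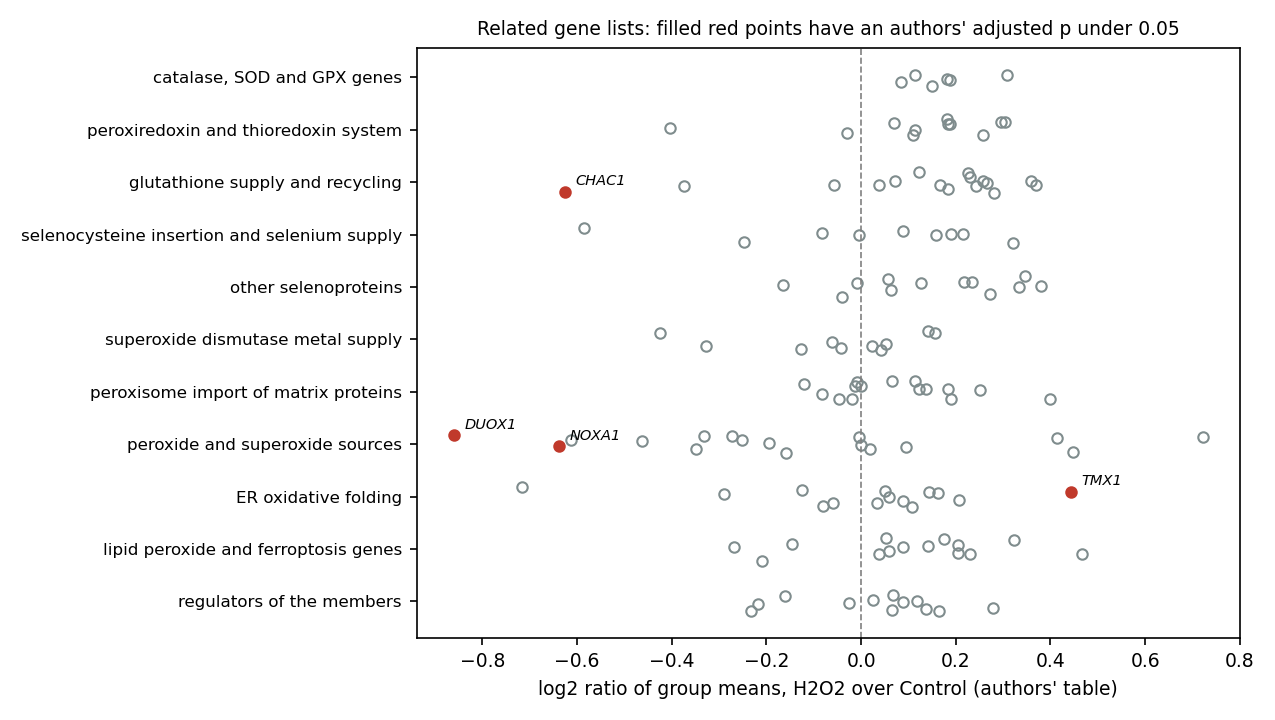
Log2 ratio of group means, H2O2 over Control, in the authors' table (x axis) for the genes of each list (rows, vertical scatter is for legibility). Filled red points have an authors' adjusted p under 0.05: CHAC1, DUOX1 and NOXA1 lie below 0 and TMX1 above, and the 6 catalase, SOD and GPX genes all lie above 0 unfilled.

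Glutathione feeds the glutathione peroxidases. Among 16 listed genes of its supply and recycling, the authors' deposited table had 1 lower, none higher and 15 short of the threshold. In it 13 of the 16 had a ratio above 1, as did 50% of all genes, and the list median log2 fold change was 0.21. Between the controls, the shallower had a list median 0.20 above the deeper. The called gene was CHAC1, whose product degrades glutathione, with 218 and 215 control reads and 157 and 122 with H2O2 (limma, log2 fold change -0.63, adjusted p = 0.0345). limma called CHAC1 without the deeper control (-0.67, adjusted p = 0.00474) and without the shallower (-0.59, adjusted p = 0.00833). It did not without the deeper H2O2 library (-0.75, adjusted p = 0.0545) or the shallower (-0.50, adjusted p = 0.291). SLC7A11, the cystine importer, stood at a fold of 0.771 (adjusted p = 0.0609) in the authors' deposited table, but its deeper control had a normalized count of 814 and the other libraries 503 to 543. With all libraries its log2 fold change was -0.35 (limma, adjusted p = 0.231). The SLC7A11 value turned on the controls: it was -0.053 without the deeper one and -0.64 without the shallower. With the deeper H2O2 library left out it was -0.29, and with the shallower -0.40. Fits without a control, for CHAC1 too, took their spread from the H2O2 libraries alone.

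The peroxiredoxins and thioredoxins remove peroxide in parallel with these enzymes. In the authors' deposited table none of 11 listed genes passed, with a median log2 fold change of 0.18. Here the shallower control was 0.27 above the deeper in list median. The mitochondrial peroxiredoxin PRDX3 stood at 1.23-fold (adjusted p = 0.136) and PRDX6 at 1.23-fold (adjusted p = 0.160) in the authors' deposited table, sizes near that of SOD1.

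GPX8 sits beside the oxidative folding enzymes of the endoplasmic reticulum, of which 1 of 14 listed genes was higher and none lower (median log2 fold change 0.055 in the authors' deposited table). TMX1, a membrane-bound thioredoxin-like protein, rose 1.36-fold in the authors' deposited table (adjusted p = 0.0436), from normalized counts of 340.3 and 293 to 419 and 441. limma gave a log2 fold change of 0.44 with all libraries (adjusted p = 0.0645). It called TMX1 without the deeper control (0.55, adjusted p = 6.23e-04) and without the shallower control (0.34, adjusted p = 0.0368). It did not without the deeper H2O2 library (0.48, adjusted p = 0.306) or the shallower (0.41, adjusted p = 0.375), fits that called 1.73% and 3.13% of all genes. QSOX2, a sulfhydryl oxidase gene, stood at a fold of 0.818 (adjusted p = 0.176) in the authors' deposited table.

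GPX4 protects against ferroptosis, a death driven by lipid peroxides. None of 14 listed genes of lipid peroxidation and iron supply passed (median log2 fold change 0.11 in the authors' deposited table). GCH1, the first enzyme of tetrahydrobiopterin synthesis, stood at 1.25-fold (adjusted p = 0.182) there. FTH1, the ferritin heavy chain gene, stood at 1.38-fold (adjusted p = 0.316) in the authors' deposited table, with only 48 to 77 reads, and 73.3% of its 75-base words occur in other genes' transcripts. None of 12 listed genes for transcription factors and their partners known to act on these enzymes passed. KEAP1, the repressor of NRF2, stood at 1.21-fold (adjusted p = 0.212) and FOXO1, a factor known to act on CAT and SOD2, at 0.851 (adjusted p = 0.501) in the authors' deposited table. The FOXO1 groups overlapped, with normalized counts of 163 and 142 in the controls and 104 and 155 with H2O2.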

How the data were processed

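Per the submitters' processing notes, the tools were DESeq, HTSeq, STAR, Trim Galore, FastQC and CASAVA 1.8 and the build hg19, with no roles given. The deposited table holds, per the file headers, a signal for each group (counts over size factors, averaged by the authors), the ratio of the group means, its log2, and the p-value of the authors' DESeq test with its adjusted form. Its lowest overall mean was 5.46. Each group mean was solved for 2 whole counts, and all 16376 genes had 1 solution within 1e-09 in each group. The size factors computed from these counts equalled the recovered ones. Calls are those of the authors' test with an adjusted p under 0.05. limma 3.58.1 (R 4.3.3) on log2(normalized count + 1) of these libraries, with a trend of variance on mean, gave standard errors and intervals. Its fold changes are on that scale, and its adjusted p-values are Benjamini-Hochberg over all genes. Adjusted p-values beside a fold from the authors' table are the authors'. The recovery and limma were tested on simulated data. Lengths, overlaps and words shared between transcripts came from GENCODE release 29, matched by symbol.

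Genes were named by rule: every gene of the set, list genes past the authors' threshold, the 2 genes of each list with the smallest p, the nearest pattern for each gene, ACTB and GAPDH. KRT20 was added as the listed epithelial marker with the lowest counts. The genes and lists were chosen with earlier results of these data known, so no list was tested as a whole. Alternatives were another pseudocount, a filter at a mean of 50, scaling by total count, voom weights, a threshold of 0.1 and leaving out each library.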

Additional observations from a re-analysis of the deposited data

How the results depend on the processing

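No paired analysis was possible because the table ties no value to a replicate number. None of the 6 genes was called under limma with all 4 libraries, a pseudocount of 5, a filter at a mean of 50, scaling by total count, voom weights or an authors' adjusted p under 0.1. The log2 fold changes stayed above 0 in all 54 refits and moved by at most 0.018 in those with all libraries. With these size factors both H2O2 libraries lay above both controls in 5 of the 6 genes, so leaving out 1 library could not reverse their sign. Among the fits with a library left out, only CAT could have changed direction. Without the deeper control, limma called 1 of the 6 (SOD1), 11 of the 130 genes of the related lists and 8.52% of all genes. Without the shallower control it called 2 of the 6 (SOD1 and GPX4), 33 of the 130 and 22.2% of all genes. With the deeper or shallower H2O2 library left out it called 0 of the 6, 1 of the 130 and 1.73% or 3.13% of all genes. The authors' table called 4 of the 130 and 7.19% of all genes. The median log2 fold change of the 6 was 0.10 to 0.19 with 1 library left out. In fits without a control the lone library is assumed to vary like the H2O2 libraries.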
